A study of Mus musculus with 4 samples.

Results

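CC chemokines are small secreted proteins that bind receptors on leukocytes and draw them along a gradient, and the name comes from a pair of adjacent cysteines near the start of the mature protein. Ligands that bind the receptor Ccr2 (Ccl2, Ccl7 and Ccl12 in the mouse) call monocytes out of the bone marrow and into injured liver. Ccl3, Ccl4, Ccl5, Ccl6 and Ccl9 act on monocytes, macrophages, neutrophils and T cells, Ccl22 acts on T cells through Ccr4, and Ccl24 acts on eosinophils through Ccr3.

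The 10 CC ligands described here are Ccl2, Ccl3, Ccl4, Ccl5, Ccl6, Ccl7, Ccl9, Ccl12, Ccl22 and Ccl24, taken by symbol from the 29247 gene IDs in the count table. All 10 were found, and all 10 are among the 18715 genes that passed the filter on low counts. The samples were macrophages sorted by flow cytometry from livers of C57BL6J mice, all 8 weeks old. The treated group comprised 3 libraries of Cxcr4+ macrophages collected at 72 h from mice dosed intraperitoneally with acetaminophen (APAP, 300 mg/kg in saline), a drug that destroys hepatocytes when overdosed. The comparison group was 1 library of control macrophages, for which the labels give neither a vehicle, a time nor a Cxcr4 gate, so drug and sort cannot be told apart. No label states that the treated libraries are from different mice, so the p-values measure the spread between these libraries, which may be technical. The APAP libraries are numbered 1 to 3 in the order of their columns.

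Total counts ran from 48282283 to 56702837 in the treated libraries and were 49950909 in the control. Genes with any count numbered 23376 to 23880 in the treated libraries and 18793 in the control. The lower bounds given below for genes not seen in the control rest on that library alone. They also take its counts to be independent. Levels are given in CPM, the usual library-scaled count, with library totals adjusted by the trimmed mean of M-values (TMM). The sort marker Cxcr4 had 84.5, 132 and 101 CPM in the treated libraries against 41.3 CPM in the control. Clec4f, a lectin that defines Kupffer cells (macrophages that reside in the liver), was abundant in all 4 libraries, at 2785 to 4670.0 CPM after APAP and 13079.6 CPM in the control. In bulk RNA from sorted cells, fewer cells of a type and less RNA per cell cannot be told apart.

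Of the 10 ligands, 4 fell (Ccl6, Ccl7, Ccl12 and Ccl24), 2 rose (Ccl3 and Ccl9) and 4 did not pass (Ccl2, Ccl4, Ccl5 and Ccl22), by the quasi-likelihood test of edgeR with a threshold of 0.05 on the adjusted p. Among all 18715 genes tested, 18.9% were called lower, 25.4% higher and 44.3% in either direction. The counts from gene lists below are to be read beside these shares. The median log2 fold change, APAP minus control, was -1.06 over the 10 ligands and 0.08 over all genes tested. It was -0.23 over the 7028 genes within the ligands' range of exon length. For 9 of the 10 the control value fell outside the treated range, as it did for 84.8% of all genes tested. The treated libraries all lay above the control for 3 of the 10 and below it for 6, against 45.7% and 39.2% of all genes tested. Without APAP library 2, 2 of the 10 fell and 2 rose, and without library 1, 6 fell and 2 rose. The calls over all genes moved as well. They were 2022 lower and 2979 higher of 18335 tested without library 2. Without library 1 they were 4185 lower and 5195 higher of 18463.

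**Figure D1:**
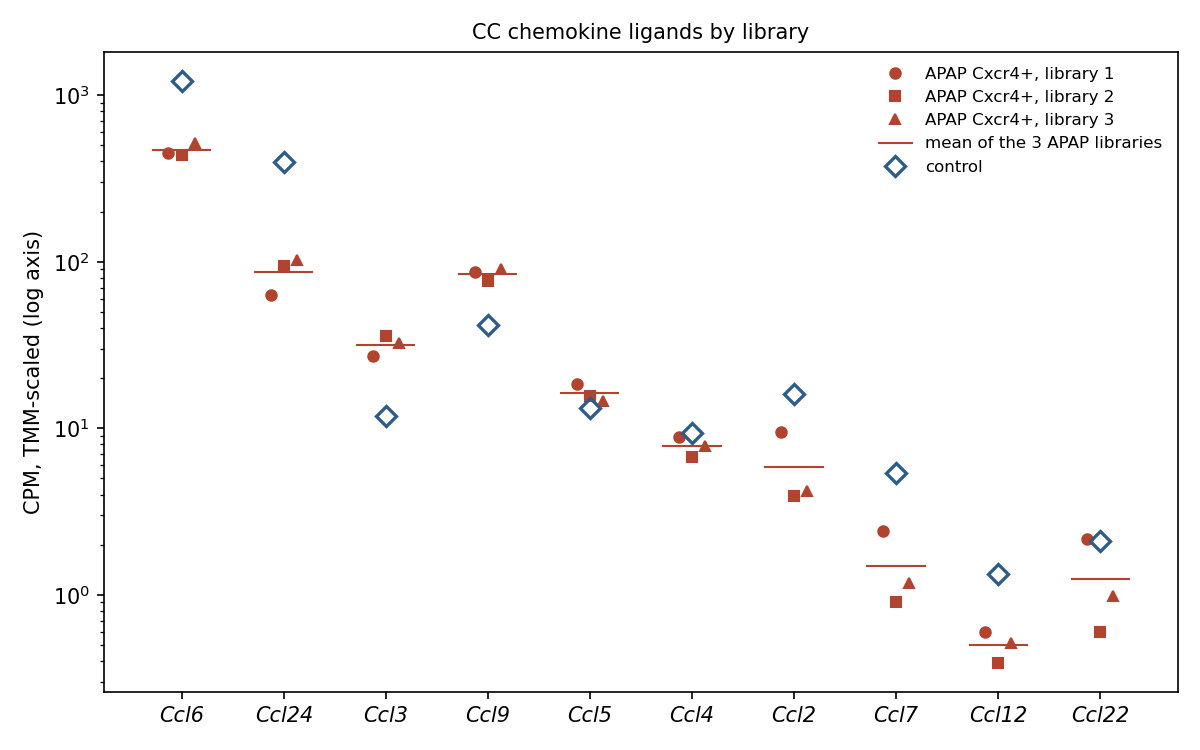
Level of the 10 CC ligands in each library in CPM on a log axis, ordered from left to right by mean level per kb in the APAP libraries. Filled red symbols are the 3 APAP libraries, red lines their means and open blue diamonds the control. The diamond lies above all 3 red symbols for Ccl6, Ccl24, Ccl4, Ccl2, Ccl7 and Ccl12, below them for Ccl3, Ccl9 and Ccl5, and among them for Ccl22.

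The ligands were not equally abundant. Scaled by exon length, Ccl6 was the most abundant in every library, at 249, 245 and 289 CPM per kb after APAP and 682 CPM per kb in the control. Ccl24 came second, at 48.7, 73.1 and 79.3 CPM per kb after APAP and 308 CPM per kb in the control. Below these, 5 ligands stood close together in the control, from 13.6 CPM per kb for Ccl9 through Ccl5, Ccl2 and Ccl4 to 15.5 CPM per kb for Ccl3. In the APAP libraries the same 5 were spread from a mean of 5.15 CPM per kb for Ccl2 to 41.5 CPM per kb for Ccl3, in the order Ccl3, Ccl9, Ccl5, Ccl4, Ccl2. The APAP ranges of neighbours in the order of all 10 did not overlap, except for Ccl12 and Ccl22 at the bottom, with means of 0.931 and 0.538 CPM per kb.

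The summed level of the 10 was 408, 422 and 474 CPM per kb after APAP and 1071 CPM per kb in the control. The share of Ccl6 in that sum was 58.1% to 61.1% after APAP and 63.6% in the control. The share of Ccl24 was 11.9% to 17.3% after APAP and 28.8% in the control. Ccl3 made up 8.65% to 11.1% after APAP and 1.44% in the control, and Ccl9 made up 5.95% to 7.04% and 1.27%. The control shares of Ccl5 (1.29%) and Ccl4 (1.33%) were below 3.21% to 4.69% and 2.40% to 3.27% after APAP. For all 6 of these ligands, Ccl6 included, the control share thus lay outside the APAP range. For Ccl2, Ccl7, Ccl12 and Ccl22 it lay inside. Ccl2 had 0.778% to 2.04% after APAP and 1.33% in the control, and Ccl7 had 0.270% to 0.737% and 0.627%. These shares are descriptions, with no test.

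**Figure D2:**
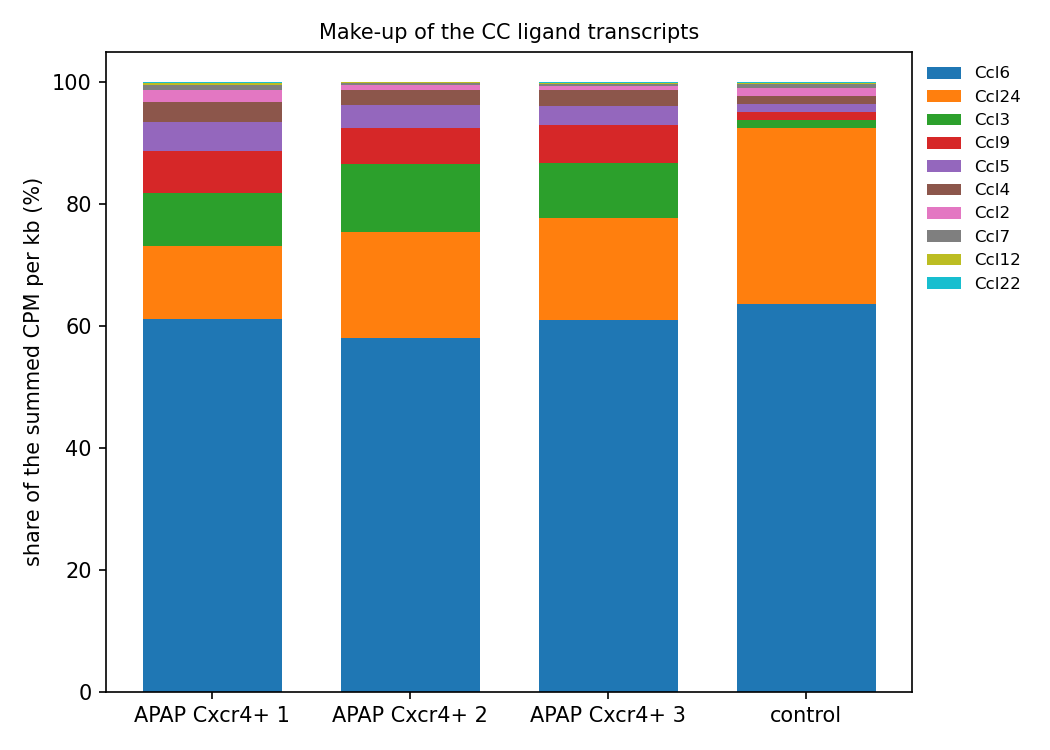
Share of each ligand, in percent, of the summed CPM per kb of the 10 CC ligands, as 1 stacked bar per library for the 3 APAP libraries and the control. Ccl6 takes 58.1% to 63.6% in every bar, Ccl24 is widest in the control at 28.8%, and Ccl3 and Ccl9 are wider in the APAP libraries.

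The 3 Ccr2 ligands lay below the control in every APAP library, and 2 of them passed the test. Ccl2, the main monocyte attractant of the family, had 9.47, 3.93 and 4.198 CPM in the treated libraries and 16.2 CPM in the control. Library 1 was the highest of the APAP group, and all 3 lay below the control. The log2 fold change was -1.46 (SE 0.48), which just missed the threshold (edgeR adjusted p = 0.0515). Without library 1 it was -1.99 and passed (adjusted p = 0.000157), without library 3 it was -1.26 and passed (adjusted p = 0.0269), and without library 2 it was -1.24 and did not (adjusted p = 0.111).

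Ccl7, which binds Ccr2 as well as Ccr1 and Ccr3, had 2.41, 0.912 and 1.18 CPM after APAP and 5.39 CPM in the control. It fell by 1.85 on the log2 scale (SE 0.50, adjusted p = 0.0289), with library 1 again the highest of the APAP group and no overlap with the control. Ccl12, a mouse monocyte attractant close to Ccl2, was scarce. Its counts were 30, 21 and 30 after APAP and 60 in the control, or 0.597, 0.391, 0.512 and 1.34 CPM. It fell by 1.41 (SE 0.40, adjusted p = 0.0334). Both calls were lost without library 2, where adjusted p was 0.0635 for Ccl7 and 0.0841 for Ccl12. The ratio of Ccl2 to Ccl7 per kb ranged from 2.51 to 3.03 in the treated libraries and was 2.11 in the control.

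Ccl24, one of the eotaxins and known as a product of alternatively activated macrophages, showed the lowest fold change of the 10. It had 63.0, 94.6 and 103 CPM in the treated libraries and 399 CPM in the control. All 3 APAP libraries were far below the control and library 1 was the lowest. The mean was 86.8 ± 21.0 CPM (SD, n = 3), which is 4.60-fold lower by the fitted value, or -2.20 on the log2 scale (SE 0.24, adjusted p = 0.00201). It also passed the test against a 2-fold change (glmTreat, adjusted p = 0.0189). Eosinophil, basophil and mast cell markers were looked at beside it, because Ccl24 acts on eosinophils. Of 7 tested, 3 rose and 1 fell. Those that rose were Siglecf (0.92 on the log2 scale), Kit (1.18) and Il5ra (0 counts in the control, at least 16.9-fold higher). Only Ear2 fell (-1.04). Summed over the list, the markers had 99.0 to 131 CPM after APAP and 202 CPM in the control. Most of that sum was Ear2, at 77.3, 92.4 and 98.1 CPM after APAP and 184 CPM in the control, while Prg2 was near absent from both groups, with 2, 0 and 2 counts after APAP and 0 in the control. Their part in the Ccl24 level was not tested.

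Ccl6, a Ccr1 ligand found in rodents, was the most abundant ligand and fell. It had 448, 440 and 519 CPM after APAP and 1223 CPM in the control. The APAP libraries were close to each other, with a mean of 469 ± 43.6 CPM (SD, n = 3), and did not reach the control. The log2 fold change was -1.38 (SE 0.12, adjusted p = 0.00129), and glmTreat called it as well (adjusted p = 0.0441).

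Ccl9, the gene beside Ccl6 and likewise a Ccr1 ligand, rose. It had 87.4, 76.5 and 90.4 CPM after APAP and 41.5 CPM in the control, with no overlap. The log2 fold change was 1.03 (SE 0.13, adjusted p = 0.00275). The ratio of Ccl9 to Ccl6 per kb was 0.115, 0.102 and 0.103 in the treated libraries and 0.0200 in the control, so the APAP libraries shared a ratio that the control did not. This ratio was not tested.

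The upstream sequences of Ccl9, Ccl6 and Ccl3 are shown because these genes lie in 1 cluster and did not move the same way, Ccl9 and Ccl3 having risen and Ccl6 having fallen. Each is the 250 bases before the start site, from RefSeq on GRCm38.p6, a build other than the mm39 of the counts. Capitals mark matches to any of the 4 motifs searched on both strands of 300 bases, of which 50 follow the start.
Ccl9 (chr11:83578637-83578886, minus strand): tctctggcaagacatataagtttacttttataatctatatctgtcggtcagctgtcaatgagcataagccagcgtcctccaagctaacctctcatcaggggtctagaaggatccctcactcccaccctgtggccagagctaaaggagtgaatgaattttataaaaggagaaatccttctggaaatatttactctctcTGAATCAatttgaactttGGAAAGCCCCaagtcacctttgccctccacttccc
Ccl6 (chr11:83593088-83593337, minus strand): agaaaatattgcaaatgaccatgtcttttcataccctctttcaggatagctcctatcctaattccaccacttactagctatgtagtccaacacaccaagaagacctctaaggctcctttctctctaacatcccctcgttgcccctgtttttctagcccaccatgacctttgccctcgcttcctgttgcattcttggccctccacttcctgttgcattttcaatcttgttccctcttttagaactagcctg
Ccl3 (chr11:83649379-83649628, minus strand): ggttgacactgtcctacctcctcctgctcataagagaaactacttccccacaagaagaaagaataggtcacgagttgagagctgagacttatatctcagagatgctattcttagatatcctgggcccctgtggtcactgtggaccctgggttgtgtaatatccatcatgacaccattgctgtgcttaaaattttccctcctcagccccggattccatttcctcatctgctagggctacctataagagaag

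The 4 motifs were a strict NF-kB site (GGG, any 2 bases, TTTCC), a wide NF-kB site (GGG, any 5 bases, CC), a form of the AP-1 site (TGANTCA) and a form of the STAT6 site (TTC, any 4 bases, GAA). A match to the strict NF-kB site is always a match to the wide one. The Ccl9 upstream sequence held a strict NF-kB match on the strand opposite to the one printed, from base -35 to -26, and an AP-1 match from base -53 to -47. All promoters in the RefSeq table held the strict NF-kB motif in 1.63% and the AP-1 motif in 7.81% of cases, and the STAT6 motif in 6.95%. The Ccl6, Ccl3 and Ccl12 sequences held no match to any of the 4, and Ccl22 held 2 matches to the wide NF-kB motif, which 50.8% of all promoters hold. Ccl2, Ccl4, Ccl5, Ccl7 and Ccl24 are not in the table. Around the start sites, 67 bases of Ccl6 and Ccl9 aligned at 86.6% identity, with 7 gap bases, in a local alignment of both 300-base sequences. Other pairs also aligned in part, such as 62 bases of Ccl12 and Ccl22, which lie on different chromosomes, at 82.3% identity with 20 gap bases, and 72 bases of Ccl3 and Ccl6 at 72.2% with 13. The stretch shared by Ccl6 and Ccl9 ran from base -59 in Ccl6 and from base -18 in Ccl9, so the motif matches of Ccl9 lay outside it.

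Ccl3, an inflammatory attractant of macrophages and T cells that binds Ccr1, rose the most of the 10. It had 27.0, 36.0 and 32.4 CPM after APAP and 11.8 CPM in the control, all 3 libraries above it. The mean was 31.8 ± 4.51 CPM (SD, n = 3), and the fitted difference was 1.43 on the log2 scale (SE 0.19, adjusted p = 0.00342). Ccl4, its neighbour and the closest relative in function, had 8.82, 6.68 and 7.83 CPM after APAP and 9.43 CPM in the control. Ccl4 differed by -0.28 (SE 0.20, adjusted p = 0.292), with a 95% interval of -0.77 to 0.22. The ratio of Ccl3 to Ccl4 per kb was 2.64, 4.64 and 3.56 in the treated libraries and 1.08 in the control, a difference that was not tested.

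Ccl5, made by T cells and NK cells as well as by macrophages, had 18.4, 15.6 and 14.6 CPM after APAP and 13.2 CPM in the control. The log2 fold change of 0.29 (SE 0.17) did not pass (adjusted p = 0.213), and its 95% interval ran from -0.14 to 0.71. With offsets for transcript length it was 0.64 and passed (adjusted p = 0.0264). Markers of cells that make Ccl5 were higher in the same libraries. Of 13 NK and cytotoxic genes 9 rose and 1 fell, with summed levels of 145 to 197 CPM after APAP and 110 CPM in the control. Of 15 T cell genes 12 rose and 0 fell, with summed levels of 162 to 212 CPM and 87.7 CPM. The NK receptor Ncr1 was at 2.56 to 3.05 CPM after APAP and 0.356 CPM in the control, and Cd3e, the defining T cell gene, did not pass (log2 fold change 0.59, adjusted p = 0.059). The part of these cells in the Ccl5 level was not tested.

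Ccl22, a product of dendritic cells and macrophages that attracts regulatory T cells, had 2.17, 0.596 and 0.990 CPM after APAP and 2.09 CPM in the control. Library 1 stood at the control's level and the other two below it. The log2 fold change of -0.75 (SE 0.66) did not pass (adjusted p = 0.388), and the 95% interval ran from -2.38 to 0.88. Without library 1 it was -1.39 and passed (adjusted p = 0.0323). The 3 of 12 listed genes of migratory dendritic cells, which produce Ccl22, that were at 0 in the control had 7 counts or fewer in each APAP library. They were not tested. Of the 9 tested, 1 rose and 2 fell. The one that rose was the homing receptor Ccr7, at 6.93, 13.1 and 8.09 CPM after APAP and 0.645 CPM in the control. Those that fell, Cd40 (-1.20 on the log2 scale) and Relb (-1.02), had the highest CPM of the list in every library. The list's summed level, in which they weighed most, was 55.0 to 62.7 CPM after APAP and 88.5 CPM in the control. Its part in the Ccl22 level was not tested. Of 12 conventional dendritic cell genes, 9 rose and 1 fell, with a median of 1.03. The growth factor receptor Flt3, their defining gene, had 13.3, 17.6 and 21.4 CPM after APAP and 1.69 CPM in the control, and the part of these cells was not tested either.

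**Figure D3:**
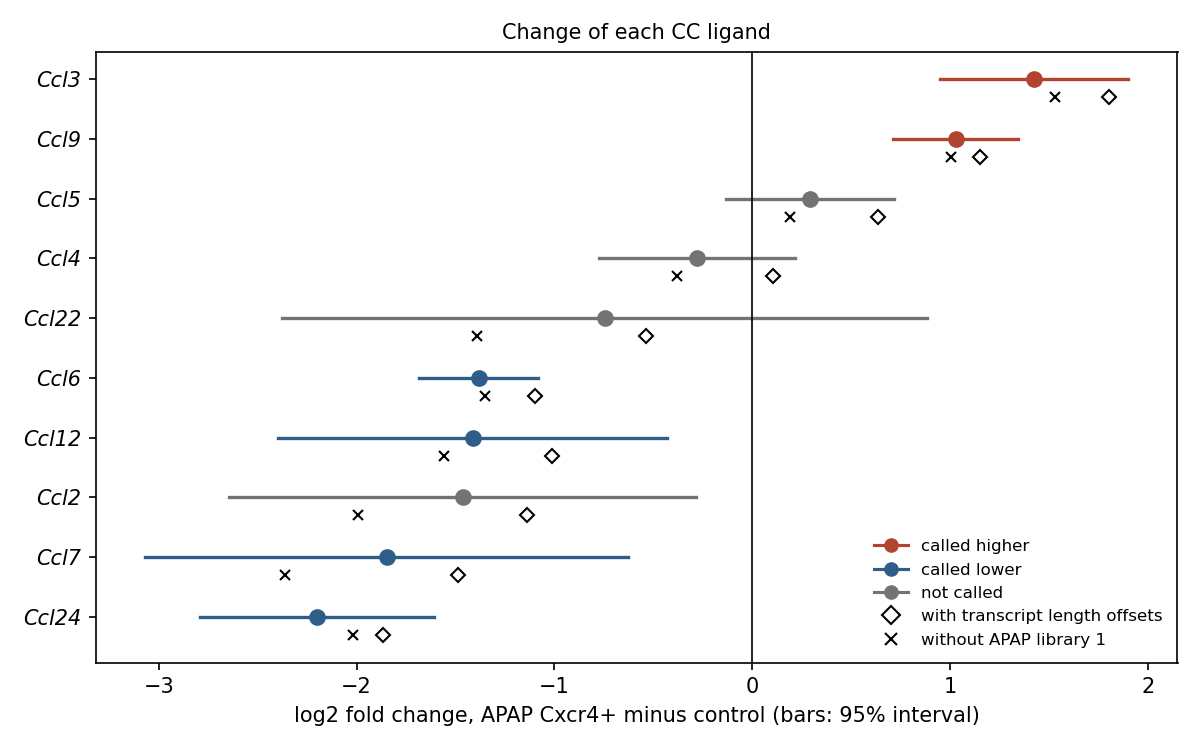
Log2 fold change of each ligand, APAP minus control, with its 95% interval (dots and bars, red where called higher, blue where called lower, grey where not called). Crosses give the value without APAP library 1 and diamonds the value with offsets for transcript length. Ccl4 is the only ligand whose diamond lies across 0 from its dot, and Ccl2, Ccl7 and Ccl22 have their crosses well to the left of their dots. The intervals are not adjusted for the number of genes, so that of Ccl2 leaves out 0 although its adjusted p is 0.0515.

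APAP library 1 stood apart for a subset of the ligands. Relative to the mean of the other APAP libraries, it had 2.33 times the Ccl2, 2.30 times the Ccl7 and 2.74 times the Ccl22 level, and 0.639 times the Ccl24 level. For Ccl3, Ccl4, Ccl5, Ccl6 and Ccl9 the same ratio lay between 0.790 and 1.22, and for Ccl12 it was 1.32. The summed level of the neutrophil markers was also highest in library 1. It was 398, 309 and 215 CPM in libraries 1 to 3 and 157 CPM in the control. Over 50% of that sum in libraries 1 to 3 and in the control was Csf3r, a growth factor receptor, at 231, 199, 153 and 111 CPM. Retnlg was lowest in library 1, at 4.52, 10.5 and 7.32 CPM and 0.490 CPM in the control. S100a8 ran at 24.0, 12.5 and 4.69 CPM and 2.51 CPM, while the neutrophil surface marker Ly6g was at 7 counts or fewer in every library. The summed Kupffer cell markers were lowest in library 1, at 13532, 16813 and 16880 CPM against 35330 CPM in the control. The part of either in the library 1 values was not tested.

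Most Kupffer cell markers moved in the same direction as Ccl6 and Ccl24. Of 12 such genes 10 fell and 0 rose, and their median log2 fold change was -1.19. Timd4, a receptor for dying cells, fell by 1.70, the folate receptor Folr2 by 2.11 and the ficolin Fcna by 2.46. Marco went the other way, at 1274, 1419 and 886 CPM after APAP and 779 CPM in the control. It did not pass (0.62, edgeR adjusted p = 0.109), nor did Spic (-0.18, adjusted p = 0.161). Of 11 monocyte genes 9 rose and 1 fell, with summed levels of 757 to 935 CPM after APAP and 241 CPM in the control. Hepatocyte genes were lower, with 12 of 15 called, all 11 B cell genes were higher, and of 15 endothelial and stellate cell genes 4 rose and 6 fell. The part of these cell types in the ligand levels was not tested.

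The receptors of several of these ligands were higher. Ccr2, which binds Ccl2, Ccl7 and Ccl12, rose from 10.8 CPM in the control to 258, 299.5 and 229 CPM, which is 4.60 on the log2 scale (SE 0.22, adjusted p = 0.000841). Ccr1, the receptor of Ccl3, Ccl6 and Ccl9 among others, rose from 1.02 CPM to 13.4, 20.2 and 12.9 CPM (3.92, SE 0.39, adjusted p = 0.00168). Ccr4, which binds Ccl22, had 0 counts in the control and 0.799 CPM on average after APAP. Against a floor of 3 counts in the control library it was at least 12.0-fold higher (adjusted p = 0.00609).

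The other receptors named here were not called, apart from Ackr1. Ccr3, the Ccl24 receptor, had 5.63, 11.04 and 12.6 CPM after APAP and 9.17 CPM in the control (0.09, SE 0.43, adjusted p = 0.878). The control lay inside the APAP range, and the direction changed when library 2 or library 3 was left out, so no direction is given. Among receptors that bind chemokines without classical signalling, the scavenger Ackr2 (0.20, adjusted p = 0.640) and Ccrl2 (-0.18, adjusted p = 0.213) did not pass. The erythroid and venular Ackr1 fell, at 9, 21 and 10 counts after APAP and 43 in the control (-1.95, SE 0.59, adjusted p = 0.0425). That call was lost without library 1 or library 3 (adjusted p = 0.0568 and 0.0572), with the DESeq2 Wald test (0.0814), with length offsets (0.0812) and with glmTreat (0.238).

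Across the list of 11 CC receptors, 7 rose and 0 fell, with a median of 3.86. The 4 besides Ccr1, Ccr2 and Ccr4 were Ccr6, Ccr7, Ccr9 and Ccr10, known mainly from lymphocytes and dendritic cells. Ccr6 had no control counts (0) and stood at least 23.1-fold higher, and Ccr7, Ccr9 and Ccr10 had log2 fold changes of 3.86, 2.34 and 1.68. Of these, Ccr7 and Ccr9 stood above 5 CPM in any library.

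**Figure D4:**
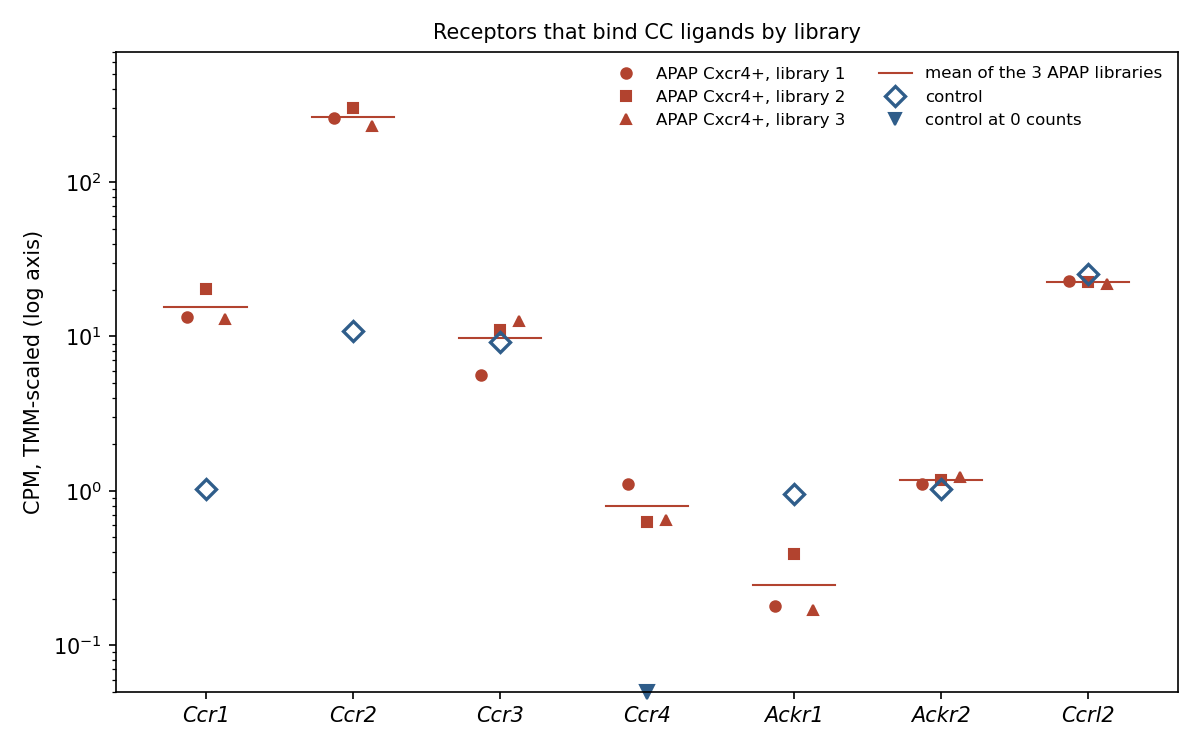
Level in CPM, on a log axis, of receptors that bind the CC ligands, in the 3 APAP libraries (red symbols, line at the mean) and the control (open diamond, or a triangle on the axis for 0 counts). Ccr1 and Ccr2 lie well above the control in all 3 libraries, Ccr4 has 0 counts in the control, Ackr1 lies below it and Ccr3 straddles it.

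The other CC ligands were scarce. Of 13 listed, 11 were in the table and 5 passed the filter on low counts, and 0 of the 5 were called by edgeR, DESeq2 or limma-voom. At an unadjusted p under 0.05 the count was also 0, the smallest edgeR p being 0.166, for Ccl8. Ccl25 was the highest, at 2.75, 3.74 and 3.91 CPM after APAP and 3.32 CPM in the control. Not scaled by length, it stood above Ccl12 and Ccl22 in every library and above Ccl7 in the APAP libraries. Ccl8, a relative of Ccl2 next to Ccl12 on the chromosome, had 16, 8 and 10 counts after APAP and 20 in the control. Ccl17, which shares the receptor Ccr4 with Ccl22, had 14, 23 and 55 counts and 37 in the control.

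Of the ligands, 8 lie in a pair of clusters on chromosome 11. The first holds Ccl2, Ccl7 and Ccl12, and the second Ccl5, Ccl9, Ccl6, Ccl3 and Ccl4 in that order. The log2 fold changes of the first cluster all lay between -1.85 and -1.41. In the second they went both ways along the chromosome: 0.29 for Ccl5, 1.03 for Ccl9, -1.38 for Ccl6, 1.43 for Ccl3 and -0.28 for Ccl4 (0.11 with length offsets). Just past Ccl4, Wfdc17, an abundant secreted protein of macrophages, had 271, 306 and 327 CPM after APAP and 1709 CPM in the control and fell by 2.50 (SE 0.12, adjusted p = 0.000841). Its neighbour Wfdc18 fell by 2.76 (SE 0.21, adjusted p = 0.00107).

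On the other side of that cluster, Heatr9 and the metalloprotease gene Mmp28 were not seen in the control (0 counts) and were at least 6.14-fold and 9.31-fold higher, and Taf15 between them did not pass (0.03, adjusted p = 0.801). The annotated span of the non-coding E230016K23Rik covers that of Ccl6 on the opposite strand. It had 8, 25 and 36 counts after APAP and 0 in the control, against 22497 to 54979 counts for Ccl6. Its call was lost without library 2 (adjusted p = 0.0773) and with limma-voom (adjusted p = 0.0706). Around the first cluster, 1 of 4 tested neighbours fell, Tmem98 (-1.37, adjusted p = 0.0302, and 0.0826 without library 2). Ccl24 lies on chromosome 5 beside Hip1 and Pom121, which rose by 0.55 each, though Hip1 did not pass without library 2 (adjusted p = 0.0612) and was at -0.14 with length offsets. Ccl22 lies on chromosome 8, where Ciapin1 fell by 0.82 and Rspry1 was called at 0.31. The call of Rspry1 was lost under most alternatives and was -0.39 with length offsets.

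**Figure D5:**
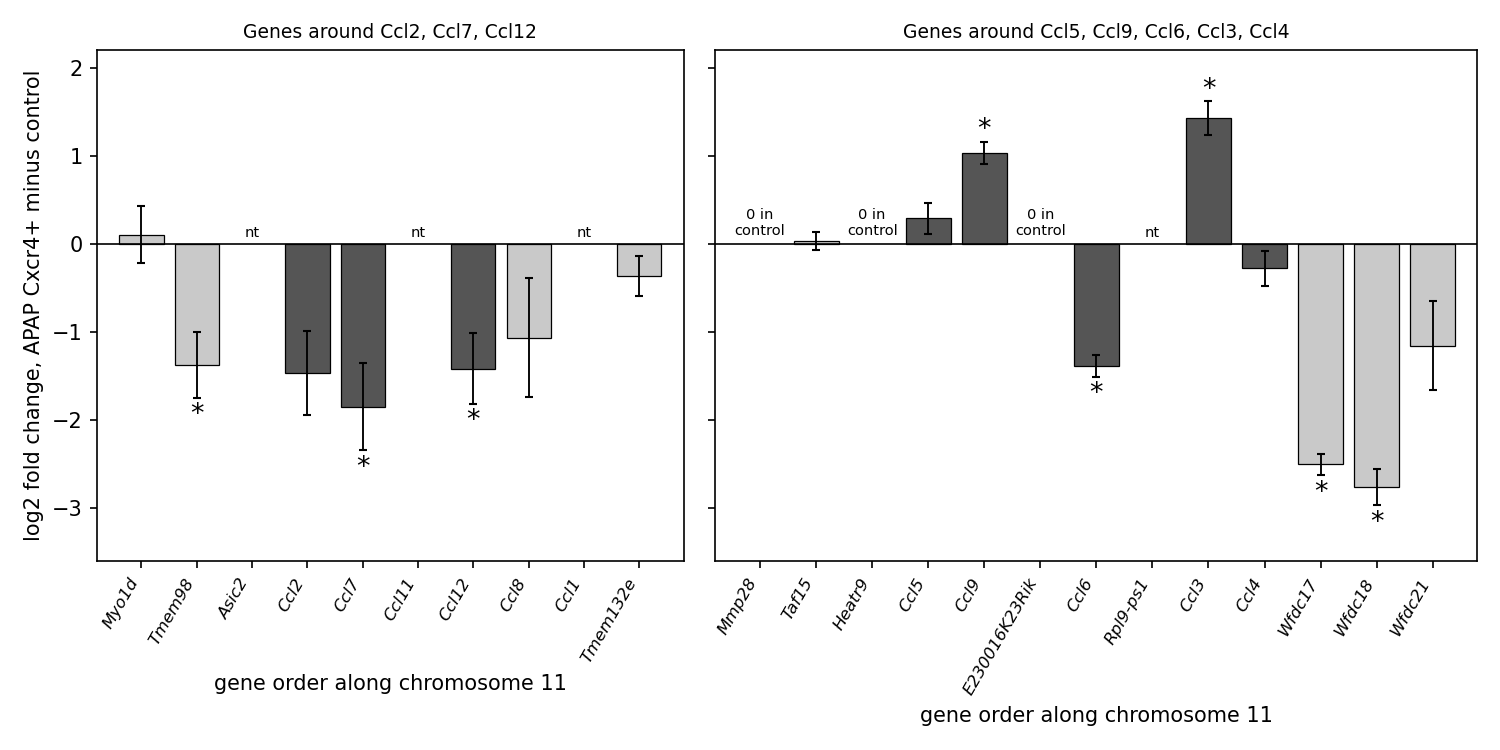
Log2 fold change, APAP minus control, of genes in their order along chromosome 11 for the Ccl2 cluster (left) and the Ccl5 to Ccl4 cluster (right), with the nearest protein-coding genes on either side. Dark bars are CC ligands, light bars their neighbours, whiskers are SE, asterisks mark called genes, nt marks genes under the count filter, and genes with 0 counts in the control have no bar. All bars of the left cluster's ligands point down, while on the right Ccl9 and Ccl3 point up on either side of Ccl6.

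Genes that control the transcription of inflammatory chemokines went both ways. Of 23, 5 rose and 10 fell, against 25.4% and 18.9% of all genes tested, with a median of -0.06. The cytokine Il1b, which induces Ccl2, fell from 617 CPM to 79.1, 87.4 and 96.5 CPM, the transcription factor Cebpb fell by 1.41 and the NF-kB subunit Relb by 1.02, while the subunit Rel rose by 0.85. Tnf had 3.48, 2.44 and 2.41 CPM after APAP and 4.43 CPM in the control and did not pass (-0.68, adjusted p = 0.103). Of 14 genes of alternative activation, a programme that includes Ccl24 and Ccl22, 4 rose and 2 fell. Those that rose were Chil3 (0 counts in the control, at least 708-fold higher), Pparg at 1.23, Fn1 at 2.16 and Mgl2 at 1.96, and the receptor chains Il4ra and Il13ra1 fell by 0.30 and 0.50. Chil3 and Fn1 are also in the list of monocyte genes. Without library 2, 0 of these 14 fell.

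A list of 12 genes was set up for chemokine mRNA stability and for proteases that cut chemokines, and it also holds the scavenger receptor Cd36, which does neither. Of the 12, 9 rose, Cd36 among them (1.87), and 1 fell (Elavl1, which stabilises transcripts, by 0.40), with a median of 0.85. The proteins of the Zfp36 family bind AU-rich elements in cytokine transcripts. Zfp36l2 rose by 1.20, Zfp36l1 by 0.78 and Zfp36 by 0.52. Rc3h1, which targets stem loops in cytokine transcripts, rose by 0.93, and Zc3h12c, a relative of the RNase regnase, rose from 0.356 CPM to 4.50, 3.80 and 4.56 CPM. Mmp12, a macrophage elastase that trims CC ligands, had 163, 64.9 and 53.0 CPM after APAP and 7.37 CPM in the control (adjusted p = 0.0150), and library 1 was again the highest. The membrane protease gene Mmp14 rose by 1.36. Downstream of the receptors, 12 of 26 signalling genes rose and 6 fell. Rgs18, which shortens G protein signals, rose by 3.20 and the receptor kinase Grk3 by 1.06, and the G protein chains Gnb2 and Gng5 fell by 0.91 and 0.94. Without library 2, 3 of the 26 fell.

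Transcript length moved with the comparison. Across 18644 genes, which are not independent replicates, Spearman's rho of the log2 fold change with exon length was 0.223, and between pairs of APAP libraries it lay from -0.043 to -0.018. The 10 ligands are short, with a median exon length of 1049 bases against 3428 bases over the genes tested. Of 7028 genes in the ligands' own length range of 537 to 3045 bases, 15.1% were called higher and 27.6% lower. Their median log2 fold change was -0.23. With offsets for length, Ccl6 (-1.10) and Ccl24 (-1.87) fell, Ccl3 (1.80), Ccl9 (1.15) and Ccl5 (0.64) rose, and Ccl7 and Ccl12 did not pass (adjusted p = 0.0537 and 0.0945).

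Reads shared between genes can blur such a family. In the annotated transcripts, 0 windows of 50 bases in 9 of the 10 ligands occurred in another gene, and for Ccl9 1.97% did, none of them in another of the 10. Among counts of 1 to 20, 65.3% to 74.0% were even numbers, against 47.3% to 50.6% among counts of 1000 to 5000. Single counts of scarce genes such as Ccl12 may therefore not be independent, which was not tested. If they are not, the lower bounds given for genes not seen in the control are too high.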

How the data were processed

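The authors deposited whole-number read counts per Ensembl gene for 4 libraries, not normalized. HISAT2, Subread and the build mm39 are named in the submitters' processing notes. Their versions and roles, the annotation and the strand setting were not given in the sources used here. RNA came from flow-sorted cells by TRIZOL, per the labels' protocols, and libraries were made with the Tecan universal plus mRNA-seq product, per the labels. Symbols were matched for 28926 of 29247 IDs (98.9%). The 3 APAP columns name their group only.

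The test was that of edgeR 4.0.16, run under R 4.3.3: filterByExpr (minimum count 10, minimum total 15) kept 18715 genes, scaled by TMM (factors 0.90 to 1.04). The quasi-likelihood F test had no covariates, Benjamini-Hochberg adjustment over all genes tested and a threshold of 0.05. With 1 control library, the error term rests on the treated group (2 residual and 3.80 prior degrees of freedom), and the lone control is taken to have the same spread. The test was checked on counts simulated with that same spread in the control, so the check does not cover a control that deviates on its own. The 95% intervals use 5.80 degrees of freedom. Exon lengths, gene order and transcripts came from GENCODE vM21 on GRCm38, and promoters from RefSeq. A floor of 3 counts in the control covers counting error only, and only if the counts are independent.

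The ligands, the lists and the tests were chosen with earlier results of these data known. Named were all 10 ligands, called genes among other CC ligands and receptors, known receptors of the ligands (of which 1 is not reported here), up to 4 called genes with the smallest p per pathway list, up to 3 per marker list with its first entry, every called chromosome neighbour, Cxcr4, and the genes nearest in profile to the ligand with the highest CPM, not scaled by length, among those that rose (Ccl9) and among those that fell (Ccl6). Ly6g, Prg2, Tnf, Ccl8, Ccl17, Ccl25, Taf15, Zfp36, Zfp36l1, Mmp12, Elavl1, Cd36, Csf3r, Sdc4, Ndst1, Il4ra, Il13ra1, Marco and Spic were added after their values were seen where that rule does not reach them. The alternatives were DESeq2 1.42.0 size factors and its Wald test, upper-quartile factors, limma-voom (limma 3.58.1), glmTreat against a log2 fold change of 1, omission of the count filter, at least 5 CPM in 1 library, omission of each treated library in turn, removal of ribosomal protein and mitochondrial genes, and offsets from the trend over exon length (lowess span 0.3).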

Additional observations from a re-analysis of the deposited data

How the results depend on the processing

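No paired analysis was possible because the control is 1 library and the APAP columns carry no replicate number. Across the 12 alternatives, Ccl24 and Ccl6 were called lower under each, and Ccl3 and Ccl9 were called higher under each except glmTreat, where they kept 1.43 and 1.03. Leaving out single APAP libraries gave Ccl2 values of -1.99 to -1.24, Ccl7 -2.36 to -1.59, Ccl12 -1.56 to -1.27 and Ccl22 -1.39 to -0.41. Ccl2 passed with no count filter (-1.43), DESeq2 size factors (-1.46), limma-voom (-1.60), upper-quartile factors (-1.49) and the DESeq2 Wald test (-1.46), but not with length offsets, a filter of 5 CPM, glmTreat or removal of ribosomal protein and mitochondrial genes. Ccl7 lost its call with glmTreat (-1.85) and length offsets (-1.49). Ccl12 lost it with the Wald test (-1.41), glmTreat (-1.41) and length offsets (-1.01). With length offsets Ccl5 passed at 0.64 and Ccl4 changed sign, to 0.11. The number of ligands called higher, 2 in the comparison as reported, was 0 with glmTreat. The number called lower, 4 as reported, was 2 with a filter of 5 CPM (fewer ligands tested), glmTreat and length offsets, and ranged from 2 to 6 when single libraries were left out. Of all 18715 genes tested, 4758 were called higher and 3537 lower as reported, and 1099 and 280 with glmTreat. The number of all genes called lower was 2956 of 10959 with the 5 CPM filter and 3320 with length offsets. It ranged from 2022 to 4185 when single libraries were left out. Over all pathway and marker lists, 101 genes were called higher and 61 lower, and 44 and 13 with glmTreat. Of 480 recomputed list counts, 56 moved by over 1.5 times, 25 of them with glmTreat. Hip1 and Rspry1 changed sign with length offsets (-0.14 and -0.39), and without single libraries Ccr3 ranged from -0.12 to 0.36. The cause of these changes was not tested, apart from glmTreat, which asks for more than a 2-fold change. No alternative replaces the single control library, and its own deviation cannot be told apart from the group difference.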

Other observations

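Chemokines are held on cell surfaces by sulphated sugar chains, and genes of these chains and their core proteins were looked at as a further list. Of 13, 2 rose and 4 fell, against 25.4% and 18.9% of all genes tested, with a median log2 fold change of -0.10. The syndecan Sdc3, the most abundant of them, had 3486, 3978 and 4004 CPM after APAP and 6244 CPM in the control and fell by 0.71 (edgeR adjusted p = 0.0104). The core protein serglycin (Srgn), which carries chemokines in secretory granules, fell by 0.72 (adjusted p = 0.00376), Sdc2 by 0.87 and Sdc4 by 0.58. Gpc1 rose by 1.01, from 3.72 CPM to 8.30, 7.43 and 6.77 CPM, and Ndst1 was called at 0.37. Without library 2, 0 of the 13 rose and 2 fell.

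Among 5261 genes averaging 5 or more in log2 CPM, those nearest to Ccl9 in log2 CPM relative to the control, over the 3 APAP libraries, were Nrp1, Plekhm3 and Slc37a2. Their distances were 0.047 to 0.094 in log2 units, and their log2 fold changes were 1.03, 0.98 and 1.01. The nearest to Ccl6 were Vamp8, Rps29 and Sumo3, at distances of 0.10 to 0.18 and with fold changes of -1.39, -1.37 and -1.32. That these fold changes are close to those of Ccl9 and Ccl6 follows from how the genes were picked and is no separate result.

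Immediate early genes, which can rise while cells are isolated, went both ways. Of 17, 6 rose and 5 fell, against 25.4% and 18.9% of all genes tested, with a median of 0.01. Egr1 rose by 1.97 and Fosb by 1.84, and Jund fell by 1.54. Without library 2, 2 of them fell.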
